A study of Mus musculus with 24 samples.

Results

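The comparison set murine leukemia cells that received only dimethyl sulfoxide (DMSO) against the same line that received only ethanol (EtOH). Both are solvents used as vehicles. All 6 DMSO libraries and all 6 EtOH libraries entered, 12 of the 24 libraries of the series, with 3 libraries for each solvent at 24 h and 3 at 48 h. They were chosen by their labels, with no measured value used. The cells are B-cell acute lymphoblastic leukemia cells from murine bone marrow. In every group they carry BCR-ABL1, the fusion kinase oncogene, a tamoxifen-inducible Cre recombinase (Cre-ERT2) and floxed alleles of Foxo1 (Foxo1 fl/fl). EtOH was the solvent for 200 nM 4-hydroxytamoxifen (4-OHT), which activates Cre, and the labels call the EtOH groups Cre minus. DMSO was the solvent for 70 nM AS1842856, a FOXO1 inhibitor. The labels give no volume of either solvent. They do not say whether replicates were separate cultures, so the spread behind each p-value is that of libraries and may be technical only. Nor do they say that the DMSO and EtOH groups were grown, extracted or sequenced side by side, so the solvent and the arm of the experiment cannot be told apart.

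All levels below are the authors' log2 expression values for each library, on 1 scale for the whole series. They are not counts, so the depth is unknown. Differences between libraries are compressed on that scale. In genes with a p under the threshold, differences of library means were set against the log2 fold changes of the authors' deposited tables. The median ratio was 0.656 to 0.666, the 0.666 from 9 genes and the others from 941 to 2881. Each ratio is from a treated group against its vehicle, and none is from DMSO against EtOH. Sizes below are thus likely to be smaller than unshrunken fold changes. A difference is DMSO minus EtOH on that log2 scale, with its standard error. Tests used 11470 genes, and a gene is called when its adjusted p (limma, Benjamini and Hochberg over all tested genes) is under 0.05. Markers of the B lineage stood high in both solvents. For Cd79a, a B-cell receptor subunit, the median of the 6 DMSO libraries was 13.86 and that of the 6 EtOH libraries was 13.80. Of 15 myeloid, 18 T and NK cell, 14 erythroid and megakaryocyte and 16 stromal and endothelial markers found in the tables, 3, 3, 8 and 3 stood at 0 in every library. Elane, S100a8, Cd4, Hbb-bs and Col3a1 were among those at 0. In the same order of lists, 4, 3, 2 and 3 markers stood high enough to be tested. Of these, 1 myeloid marker was called lower in DMSO and 1 stromal or endothelial marker higher. Of the T and NK cell markers 1 was higher and 1 lower, and no erythroid or megakaryocyte marker was called. Among all tested genes 13.2% were higher and 13.1% lower. The mean log2 value over the myeloid markers ran from 1.38 to 1.45 in DMSO and from 1.41 to 1.496 in EtOH. For T and NK cell markers it ran from 1.57 to 1.60 and from 1.60 to 1.63. For erythroid and megakaryocyte markers it ran from 0.21 to 0.24 and from 0.19 to 0.25, and for stromal and endothelial markers from 0.97 to 1.03 and from 0.94 to 0.99.

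In the DMSO cells, amino acid stress genes, MHC class I genes and ribosomal protein genes were lower than in the EtOH cells, and DNA replication and sterol synthesis genes were higher. These groups are controlled by separate programs. ATF4 is a transcription factor made when cells run short of amino acids or meet other stress that acts through eIF2 alpha. It switches on amino acid synthesis, uptake and tRNA charging. E2F factors drive the genes of DNA replication as a cell passes from G1 into S phase. SREBP2 switches on cholesterol synthesis when sterols in the cell are low, and SREBP1 does so for fatty acids. MHC class I proteins carry peptides cut by the proteasome to the cell surface. Ribosomal protein genes are controlled largely together, in step with growth.

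The promoters of called members of the ATF4 and the replication lists are shown because they hold the letters those factors bind. They are RefSeq promoters of GRCm38.p6, the 250 bases before the start of the gene, written 5′ to 3′ on the gene's strand. Capitals mark the match. The amino acid response element was searched as TGATGNAA and the E2F site as TTTNNCGC, on both strands and each counted by itself. Asns lies at chr6:7693210-7693459 (minus strand, match 23 bases before the start) and Chac1 at chr2:119350992-119351241 (plus strand, 193 bases before). Mcm7 lies at chr5:138171884-138172133 (minus strand, 165 bases before) and Cdc6 at chr11:98907901-98908150 (plus strand, 138 bases before). In Chac1, Mcm7 and Cdc6 the match reads on the opposite strand.
Asns: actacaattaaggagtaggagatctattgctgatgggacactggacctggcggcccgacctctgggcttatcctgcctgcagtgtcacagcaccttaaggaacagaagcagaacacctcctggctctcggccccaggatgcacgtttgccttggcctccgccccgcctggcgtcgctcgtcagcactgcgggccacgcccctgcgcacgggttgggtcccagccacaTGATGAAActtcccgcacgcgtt
Chac1: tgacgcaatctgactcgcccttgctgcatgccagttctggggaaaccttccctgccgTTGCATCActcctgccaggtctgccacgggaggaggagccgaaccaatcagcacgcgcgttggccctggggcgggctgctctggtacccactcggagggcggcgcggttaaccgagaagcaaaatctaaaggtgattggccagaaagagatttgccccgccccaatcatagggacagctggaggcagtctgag
Mcm7: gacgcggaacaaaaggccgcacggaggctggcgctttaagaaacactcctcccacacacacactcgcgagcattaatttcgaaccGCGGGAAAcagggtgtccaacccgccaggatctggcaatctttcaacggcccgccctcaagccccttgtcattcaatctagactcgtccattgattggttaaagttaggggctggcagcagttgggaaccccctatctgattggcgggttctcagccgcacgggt
Cdc6: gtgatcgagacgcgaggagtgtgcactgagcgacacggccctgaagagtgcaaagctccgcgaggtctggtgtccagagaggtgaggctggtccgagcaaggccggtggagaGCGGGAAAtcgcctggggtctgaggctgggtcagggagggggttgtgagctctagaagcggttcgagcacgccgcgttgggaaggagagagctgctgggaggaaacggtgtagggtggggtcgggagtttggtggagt
Of the 22 called ATF4 list genes, 18 had a promoter in the RefSeq table and 5 of them held TGATGNAA (27.8%). These were Asns, Chac1, Nupr1, Gars and Aars. Among all 27025 RefSeq promoters it stood in 1056 (3.91%). TTTNNCGC stood in 7 of the 25 promoters found for the called replication genes (28%) and in 1335 of all (4.94%). The sterol response element, searched as TCACNCCAC, stood in none of 10 promoters of called cholesterol genes and in 331 of all (1.22%). The set of all RefSeq promoters includes genes that were not tested here, so these shares are not set against expressed genes. A match is a description of these letters in this window.

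Across both times, 3011 of the 11470 genes were called, 26.3%, with 1510 higher in DMSO (13.2%) and 1501 lower (13.1%). When libraries were rescaled to equal medians over the tested genes, which placed the median difference of all genes at 0.02, the split was 1936 higher and 1192 lower. The differences were small. Their median absolute size among called genes was 0.23, with 169 genes at 0.5 or more and 19 at 1 or more. In 980 genes (8.54%) the 6 DMSO libraries did not overlap the 6 EtOH libraries, with DMSO above in 493 (4.3%) and below in 487 (4.25%). A principal component with 33.4% of the variance over the 12 libraries held DMSO at 3.5 to 14.6 and EtOH at -18.1 to -2.5, with no overlap. 1 library stood apart. DMSO 48 h replicate 1 lay at 23.6 on the second component, which held 19.7%, whereas the other 11 lay between -10.3 and 2.6. Without it 3520 genes were called. Deviations within groups were larger in DMSO (root mean square 0.12 to 0.17 in log2) than in EtOH (0.09 to 0.10).

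**Figure D1:**
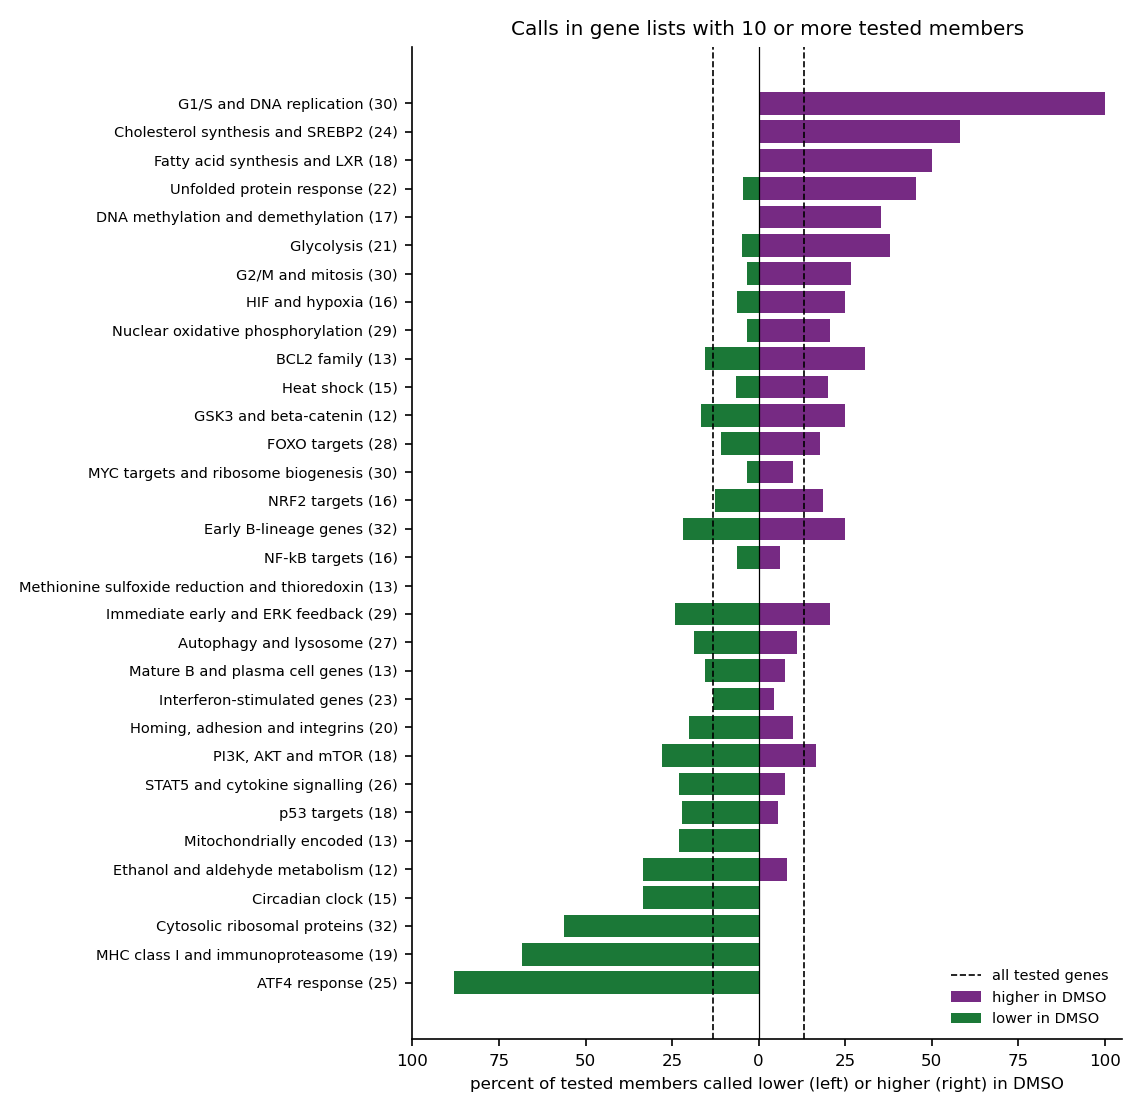
Bars give the percent of tested members of each gene list called higher (right) or lower (left) in DMSO than in EtOH over 12 libraries, with the number of tested members in parentheses. Dashed lines mark the shares of all tested genes, 13.2% higher and 13.1% lower; all 30 replication genes lie to the right and 22 of 25 ATF4 genes to the left.

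The ATF4 list held the largest differences among the lists with 10 or more tested members. Of its 25 tested genes 22 were lower in DMSO and none was higher, against 13.1% lower among all genes, and the median difference was -0.52 (all tested genes, -0.00085). Without DMSO 48 h replicate 1, 23 were lower, and with any 1 library left out 21 to 23. Cth encodes cystathionine gamma-lyase, which makes cysteine. In the EtOH libraries it stood at 9.47, 9.33 and 9.65 at 24 h and at 10.51, 10.68 and 10.85 at 48 h. In the DMSO libraries it stood at 7.82, 8.20 and 7.98, then 8.64, 8.14 and 8.55. Every DMSO library was thus below every EtOH library, and in both solvents the 48 h median was above the 24 h median. The difference was -1.86 ± 0.14 (adjusted p = 1.46e-05). Trib3, a pseudokinase that ATF4 induces and that dampens the same pathway, stood at 9.56, 9.53 and 9.48 in EtOH at 24 h against 8.13, 8.32 and 8.30 in DMSO. At 48 h it stood at 10.40, 10.53 and 10.80 against 9.03, 8.50 and 8.87, with no overlap at either time (-1.53 ± 0.11, adjusted p = 1.46e-05). For genes named by size, Cth and Trib3 among them, no overlap was a condition of being named, so their separation is no separate result.

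Amino acid synthesis genes of the list followed the same direction. Asns, asparagine synthetase, whose promoter is shown above, stood at 11.80, 11.79 and 11.84 in EtOH and at 11.19, 11.12 and 11.29 in DMSO at 24 h. At 48 h the values were 12.16, 12.31 and 12.36 against 11.66, 11.25 and 11.44. The difference of -0.72 ± 0.07 (adjusted p = 3.27e-05) was larger than the spread, and the 2 solvents did not overlap. Genes of serine and one-carbon metabolism were lower as well. Psph, the last enzyme of serine synthesis, differed by -0.51 ± 0.07 and Phgdh, the first, by -0.29 ± 0.07. Mthfd2, a mitochondrial folate enzyme, differed by -0.52 ± 0.04, and Aldh1l2, which oxidises formyl folate in mitochondria, by -1.82 ± 0.17. Shmt2 was lower by a small step (-0.11 ± 0.04, adjusted p = 0.036). Psat1, the middle enzyme of serine synthesis, did not pass, with a difference of 0.06 ± 0.07.

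The transcription factors and signalling genes of the list differed in size. Atf4 itself was lower by a small step (-0.15 ± 0.04, adjusted p = 0.018), and its values of 12.45 to 12.76 in DMSO overlapped those of 12.56 to 13.01 in EtOH. The transcript of Atf5, a related factor, stood at 9.33 to 9.91 in DMSO and at 10.52 to 10.71 in EtOH (-0.99 ± 0.09). Ddit3, the stress factor CHOP, differed by -1.05 ± 0.14 and Cebpb by -1.06 ± 0.15. Chac1, which degrades glutathione, differed by -1.08 ± 0.12, and Sesn2, which relays leucine shortage to mTORC1, by -0.79 ± 0.08. Nupr1, a small stress-induced chromatin protein, differed by -1.42 ± 0.17. Ddit4, another inhibitor of mTORC1, did not pass (-0.20 ± 0.10).

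Transporters and tRNA synthetases of the list were lower too. Slc3a2 and Slc7a5, the 2 chains of the large neutral amino acid transporter, differed by -0.65 ± 0.07 and -0.55 ± 0.05. Slc1a5, a glutamine carrier, differed by -0.34 ± 0.05 and the arginine carrier Slc7a1 by -0.19 ± 0.04. Gars differed by -0.30 ± 0.04, Eprs by -0.32 ± 0.06 and Aars by -0.15 ± 0.03, while Wars did not pass (-0.12 ± 0.05). Outside the list, Slc1a4, a carrier of neutral amino acids, was lower (-0.67 ± 0.05). So were Pycr1, which makes proline (-0.82 ± 0.09), and Aldh18a1, which makes its precursor (-0.44 ± 0.05). The solvents did not overlap in them, which for genes named by size was a condition of being named.

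**Figure D2:**
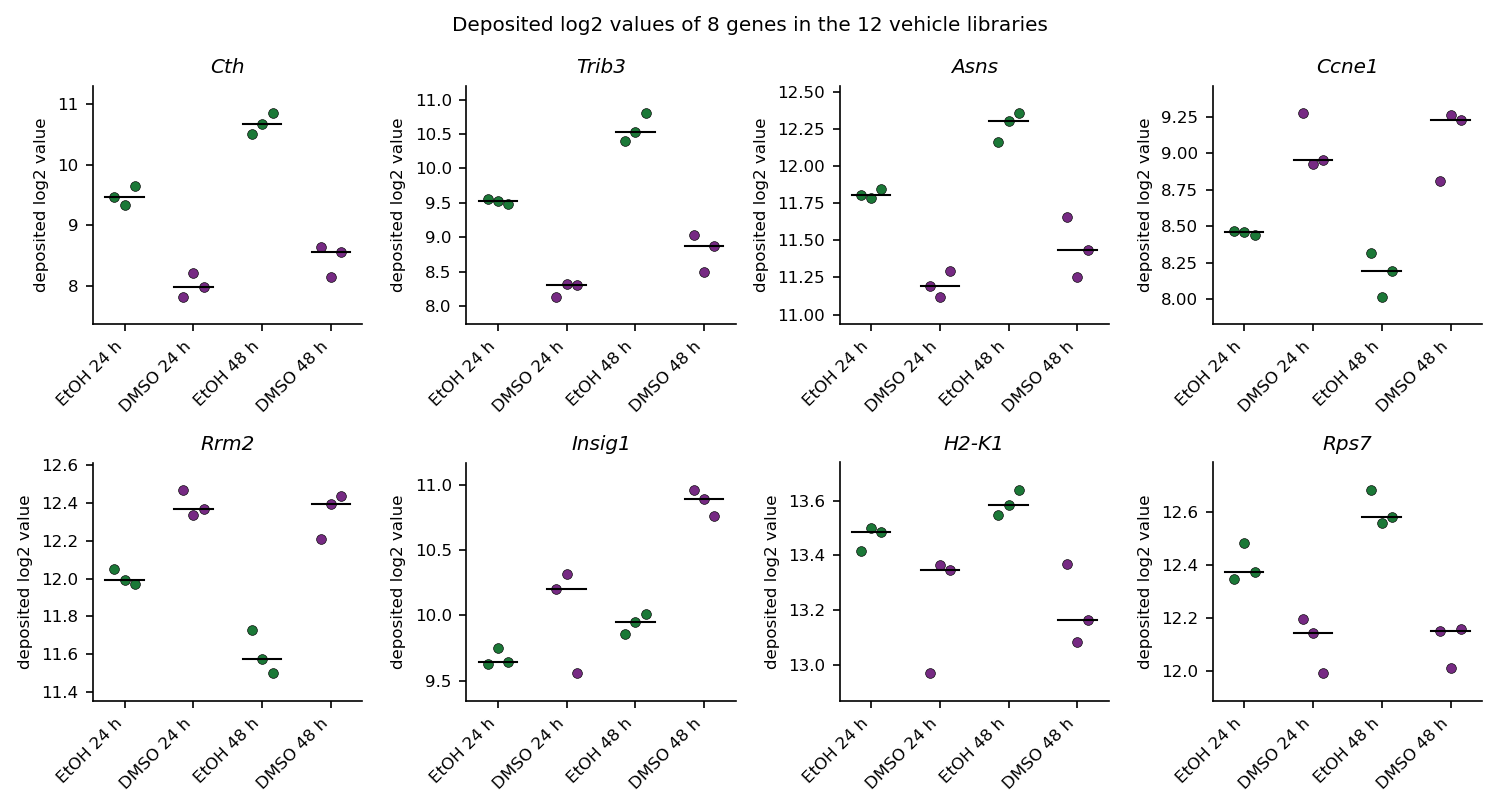
Points are the deposited log2 values of 8 genes in each of the 12 vehicle libraries (EtOH green, DMSO purple; 3 libraries per solvent and time), and bars are group medians. In Cth, Trib3, Asns, H2-K1 and Rps7 every DMSO library lies below every EtOH library, in Ccne1 and Rrm2 above, and in Insig1 1 DMSO library at 24 h lies at 9.56, below all EtOH libraries. For genes named by size, no overlap was a condition of being named.

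The DNA replication list moved the other way. All 30 of its tested genes were called higher in DMSO, against 13.2% of all genes, with a median difference of 0.31. All 30 stayed called with any 1 library left out. Like the other lists, it was chosen with earlier results of these data known, so the count describes these members only. Of 20 MCM, GINS and origin recognition genes, taken as a whole family, 15 were higher and 1 lower. That family was chosen after the values of single genes were seen and shares members with the list, so it is not separate support. In 13 of the 30 the solvents did not overlap, against 4.3% of all tested genes with DMSO above. Ccne1, cyclin E1, which activates CDK2 at the start of S phase, stood at 8.46, 8.46 and 8.44 in EtOH at 24 h and at 9.27, 8.93 and 8.95 in DMSO. At 48 h it stood at 8.31, 8.02 and 8.19 against 8.81, 9.26 and 9.23 (0.76 ± 0.10, adjusted p = 0.000294). Rrm2, the regulated subunit of ribonucleotide reductase, stood at 12.05, 11.99 and 11.97 in EtOH and at 12.47, 12.34 and 12.37 in DMSO at 24 h, then at 11.73, 11.57 and 11.50 against 12.21, 12.39 and 12.44. The EtOH libraries were thus lower at 48 h than at 24 h in both genes, and the DMSO libraries lay in much the same range at both times. The difference in Rrm2 was 0.57 ± 0.07 (adjusted p = 0.000234).

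Members of each step of replication were among the called genes. The licensing factors Cdc6 and Cdt1 differed by 0.49 ± 0.08 and 0.43 ± 0.08. Of the helicase subunits, Mcm7 differed most (0.43 ± 0.06) and Mcm6 least among those listed (0.24 ± 0.05). Pcna, the sliding clamp, differed by 0.41 ± 0.06 and Fen1, which trims Okazaki fragments, by 0.41 ± 0.05. Tyms, thymidylate synthase, differed by 0.29 ± 0.05. E2f1, itself an E2F target, differed by 0.30 ± 0.07. Slbp, which binds histone mRNA, differed by 0.37 ± 0.05. Outside the list, E2f7, a repressor of the same genes, was 0.56 ± 0.08 higher and Cdk4, the cyclin D kinase, 0.32 ± 0.03 higher.

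Of 30 mitosis genes tested 8 were higher and 1 lower, against 13.2% and 13.1% of all tested genes, with a median of 0.05. These shares of all genes are the ones to read the counts of every list below against. Ccnb2, a mitotic cyclin, differed by 0.19 ± 0.03 and Cenpa, the centromere histone, by 0.23 ± 0.04. Mki67 (0.11) and Top2a (0.05) did not pass. Of 30 MYC target and ribosome biogenesis genes 3 were higher and 1 lower, but without DMSO 48 h replicate 1 the count was 9 higher and 1 lower. Myc itself was the lower one, at 12.72 to 12.97 in DMSO and 13.03 to 13.09 in EtOH, with no overlap (-0.22 ± 0.04, adjusted p = 0.002).

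Lipid synthesis genes were higher in DMSO. Of 24 tested cholesterol genes 14 were higher and none lower, with a median of 0.22, and of 18 fatty acid genes 9 were higher and none lower, also with a median of 0.22. Without DMSO 48 h replicate 1 these counts were 13 and 9. With any 1 library left out they ran from 12 to 20 and from 8 to 12. Fitted with no term for time, 6 cholesterol genes were called. Insig1, which holds the SREBP escort in the endoplasmic reticulum, stood at 9.63, 9.75 and 9.64 in EtOH at 24 h and at 10.20, 10.31 and 9.56 in DMSO. At 48 h it stood at 9.86, 9.95 and 10.01 against 10.96, 10.89 and 10.76. The solvents separated at 48 h, while at 24 h DMSO replicate 3 lay below the EtOH range. Over both times the difference was 0.64 ± 0.13 (adjusted p = 0.00346). Scd1, which puts a double bond into stearate, had the same shape, with 12.65, 12.82 and 12.16 in DMSO against 12.12, 12.19 and 12.17 at 24 h (0.59 ± 0.10 over both times).

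Enzymes along the sterol pathway were called from end to end but not at every step. Idi1, which isomerises the isoprene unit, differed by 0.41 ± 0.09 and was the called cholesterol gene in which the solvents did not overlap. Mvd, Fdps, Lss and Cyp51, enzymes on the way from mevalonate to sterols, differed by 0.31 to 0.40. Hmgcs1, an early enzyme, did not pass (0.21 ± 0.09), nor did Sqle (0.22 ± 0.08) or Srebf2 (0.05 ± 0.05). Among fatty acid genes Scd2 differed by 0.77 ± 0.15, Fads2 by 0.71 ± 0.10, Elovl6 by 0.41 ± 0.07 and Srebf1 by 0.31 ± 0.06. Fasn, the synthase, did not pass (0.16 ± 0.12).

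Glycolysis genes spread widely within DMSO at 24 h. Of 21 tested, 8 were higher and 1 lower, with a median of 0.18. With any 1 library left out 6 to 12 were called. The mean deviation of the list from the vehicle mean ran from -0.25 to 0.37 over the DMSO libraries at 24 h, and from -0.12 to -0.10 over the EtOH libraries at that time. Ldha differed by 0.40 ± 0.09, Pkm by 0.44 ± 0.10 and Pgk1 by 0.47 ± 0.14. Slc16a3, the lactate exporter, stood at 8.57, 9.81 and 7.57 in DMSO at 24 h against 7.98, 7.97 and 7.98 in EtOH, so the DMSO libraries lay on both sides. Its difference of 0.85 ± 0.26 had an adjusted p of 0.0312. Of 22 genes of the unfolded protein response, chaperones and regulators of the endoplasmic reticulum, 10 were higher and 1 lower. Hspa5, the chaperone BiP, differed by 0.28 ± 0.08 and Creld2 by 0.30 ± 0.06, and Xbp1, a transcription factor of that response, was the lower one (-0.36 ± 0.11). Xbp1 lost its call in 6 of 21 alternatives. The number called, 11, was 6 without DMSO 48 h replicate 2 or 3, and 7 without EtOH 48 h replicate 2 or 3.

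MHC class I genes were lower in DMSO. Of 19 tested genes of antigen presentation 13 were lower and none higher, with a median of -0.27. The same count held without DMSO 48 h replicate 1, and 9 to 13 were lower with any 1 library left out. In 6 of the 19 the solvents did not overlap, against 4.25% of all tested genes with DMSO below. H2-K1, a classical heavy chain, stood at 13.42, 13.50 and 13.48 in EtOH and at 12.97, 13.37 and 13.35 in DMSO at 24 h. At 48 h it stood at 13.55, 13.59 and 13.64 against 13.37, 13.08 and 13.17. All DMSO libraries were below all EtOH libraries (-0.31 ± 0.07, adjusted p = 0.00584). B2m, the light chain, differed by -0.24 ± 0.05 with no overlap, H2-D1 by -0.28 ± 0.07 and H2-Q7 by -0.51 ± 0.11. Heavy chain genes are near-identical in part, so reads may be split among them. The peptide transporter genes Tap1 and Tap2 differed by -0.24 ± 0.07 and -0.25 ± 0.08, and Psmb9, an immunoproteasome subunit, by -0.27 ± 0.08. Nlrc5, the activator of these genes, did not pass (-0.29), nor did Psmb8 (-0.21). Of 23 interferon-stimulated genes 3 were lower and 1 higher. Of 9 MHC class II genes 2 were higher and none lower, but 2 were higher and 2 lower without DMSO 48 h replicate 1. Cd74, the invariant chain, was among the higher ones (0.58 ± 0.12).

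Cytosolic ribosomal protein genes showed small differences of 1 sign. Of 32 tested 18 were lower and none higher, with a median of -0.13. With any 1 library left out 12 to 22 were lower, the 22 without DMSO 48 h replicate 1. Rps7 stood at 12.35, 12.48 and 12.37 in EtOH against 12.20, 12.14 and 11.99 in DMSO at 24 h, and at 12.68, 12.56 and 12.58 against 12.15, 12.01 and 12.16 at 48 h. The solvents did not overlap (-0.39 ± 0.05, adjusted p = 0.000354). Rps18 (-0.35 ± 0.05) and Rpl30 (-0.26 ± 0.03) did not overlap either. Rpl3 (-0.10 ± 0.04) and Rps2 (0.12) did not pass. Gas5, a noncoding host of small nucleolar RNAs that is controlled with ribosomal protein genes, was also lower (-0.40 ± 0.06). The medians of the ATF4, replication, cholesterol, fatty acid, MHC class I and ribosomal protein lists kept their sign when libraries were rescaled to equal medians or quantile normalised.

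**Figure D3:**
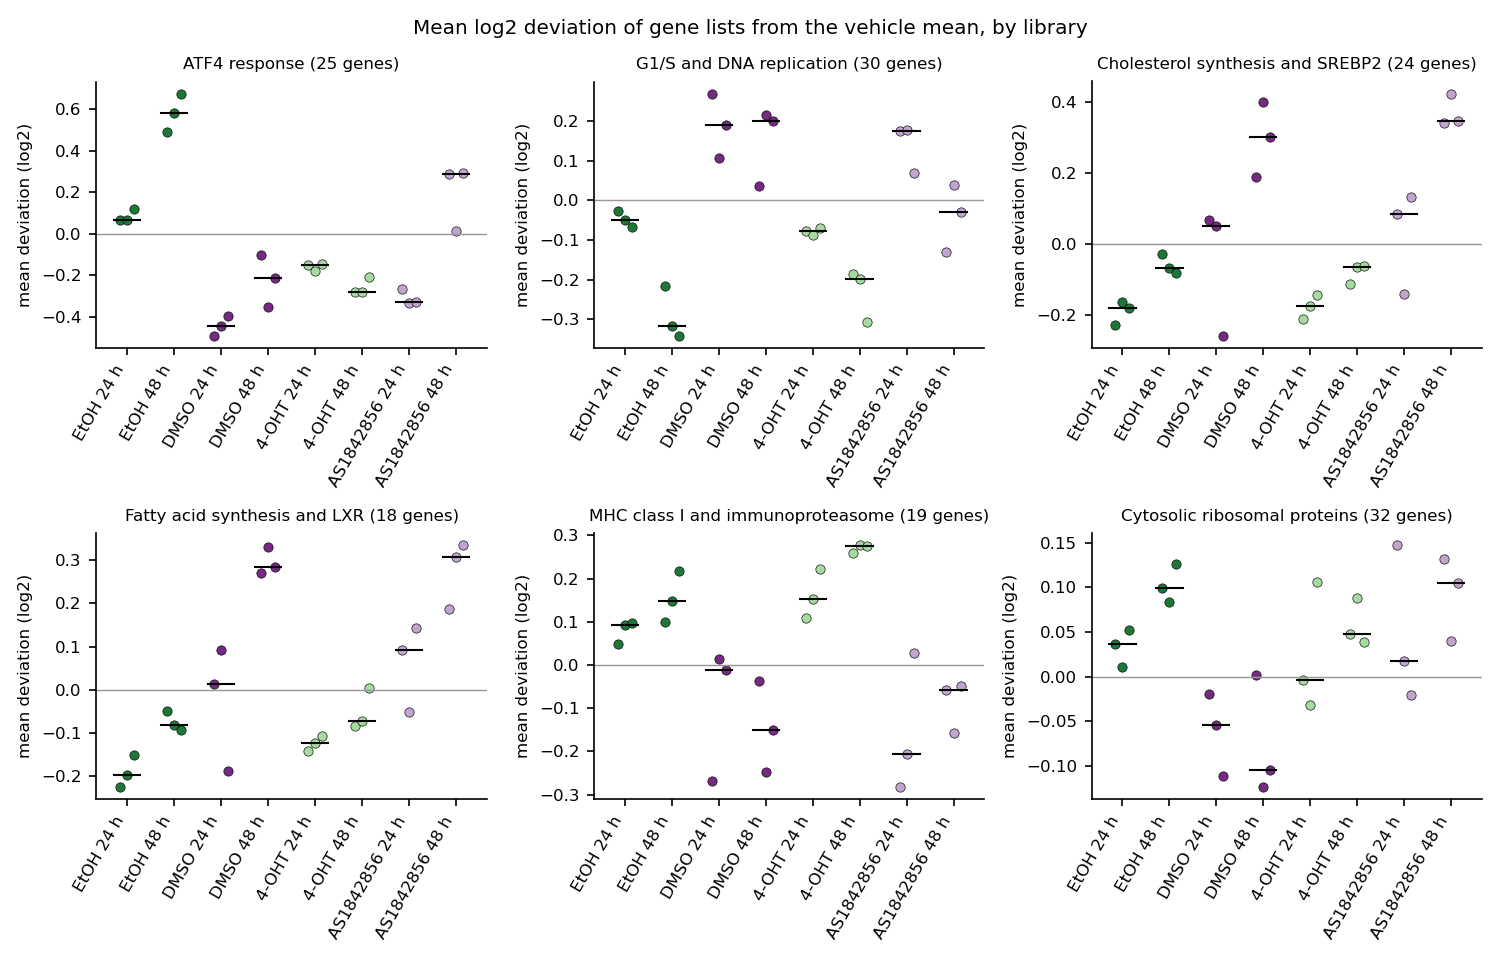
Each point is 1 library, the mean over a list's tested genes of the log2 value minus that gene's mean over the 12 vehicle libraries; bars are medians of 3 libraries. EtOH (dark green) and DMSO (dark purple) do not overlap in the ATF4 list (EtOH 0.06 to 0.68, DMSO -0.49 to -0.10), and the 4-OHT (light green) and AS1842856 (light purple) libraries are shown beside them.

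Genes that handle the solvents themselves were examined next. EtOH is oxidised by alcohol and aldehyde dehydrogenases, and DMSO can be reduced by methionine sulfoxide reductases. Of 12 tested genes of ethanol and aldehyde metabolism 1 was higher and 4 were lower in DMSO, against 13.2% and 13.1% of all tested genes. These 5 calls became 1 without EtOH 24 h replicate 2 or 3 or EtOH 48 h replicate 2, 2 without DMSO 24 h replicate 1 or EtOH 48 h replicate 3, and 3 without DMSO 48 h replicate 2 or 3 or EtOH 48 h replicate 1. Adh5, the alcohol dehydrogenase of most cells, stood at a median of 11.45 in DMSO and 11.53 in EtOH (-0.10 ± 0.05, adjusted p = 0.201). Aldh2, which clears acetaldehyde, did not pass (-0.10 ± 0.04, adjusted p = 0.108). Aldh18a1, the proline enzyme named above, was the largest, and Cat, catalase, was the higher one (0.12 ± 0.03, adjusted p = 0.0269). Cat lost its call in 7 of 21 alternatives. None of 13 methionine sulfoxide reductase, thioredoxin and related genes was called, and 1 was without DMSO 24 h replicate 3 or DMSO 48 h replicate 1. Msra stood at 7.50 to 7.71 in DMSO and at 7.34 to 7.77 in EtOH (0.03 ± 0.07).

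Other stress lists gave mixed counts. Of 16 NRF2 targets 3 were higher and 2 lower, or 3 in all without DMSO 48 h replicate 2 or 3 or EtOH 48 h replicate 2 or 3, among them Hmox1, heme oxygenase, which was lower (-0.48 ± 0.09). Of 8 metal response genes 4 were higher, with Mt1, metallothionein, at 0.32 ± 0.08. Of 15 heat shock genes 3 were higher and 1 lower. These 4 calls became 9 without DMSO 48 h replicate 1, 7 at equal medians, and 2 without DMSO 48 h replicate 2 or 3, EtOH 24 h replicate 2 or EtOH 48 h replicate 2 or 3. Hspa1b, an inducible HSP70, stood at 5.72, 5.60 and 5.74 in DMSO against 5.30, 5.41 and 5.32 in EtOH at 24 h, and at 6.09, 6.35 and 6.20 against 5.55, 5.29 and 5.02 at 48 h (0.64 ± 0.11). Among 16 hypoxia genes 4 were higher and 1 lower, and Bnip3, a mitophagy receptor, differed by 0.52 ± 0.15. Of 6 AHR response genes 3 were lower, or 1 without DMSO 48 h replicate 2 or 3 or any 1 EtOH 48 h library. Ahr itself differed by -0.41 ± 0.12 and lost its call in 5 of 20 alternatives.

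Foxo1, the floxed gene, was lower in the DMSO libraries. It stood at 9.34 to 9.74 in DMSO and at 9.80 to 10.11 in EtOH, with no overlap (-0.37 ± 0.08, adjusted p = 0.00581). Neither group received 4-OHT. Foxo3 (-0.05 ± 0.05), Foxo4 (-0.07 ± 0.07) and Foxo6 (-0.10 ± 0.05) did not pass. Of 28 FOXO target genes 5 were higher and 3 lower, or 5 higher and 6 lower without DMSO 48 h replicate 1. Rag1, the recombinase gene that FOXO1 activates in B-cell precursors, was higher, at 6.69 to 7.73 in DMSO and 5.55 to 6.53 in EtOH (1.07 ± 0.19, adjusted p = 0.00167). Ccng2 was higher as well (0.65 ± 0.18), and Il7r, another FOXO1 target, did not pass (-0.19). Bcl2l11, the death gene BIM, was higher (0.35 ± 0.06) and Bbc3, the death gene PUMA, was lower (-0.39 ± 0.07).

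B-lineage and signalling genes split both ways over both times together. Of 32 early B-lineage genes 8 were higher and 7 lower, or 6 higher and 10 lower without DMSO 48 h replicate 1. At 24 h 0 were higher and 1 lower. At 48 h 14 were higher and 6 lower (all genes, 12.1% and 13.9%). With any 1 library left out, the 48 h counts ran from 9 to 14 higher and from 3 to 9 lower. Dntt, the polymerase that adds bases to V(D)J joints, stood at 10.05 to 11.21 in DMSO and at 11.16 to 11.32 in EtOH (-0.65 ± 0.16). Cd79b was higher (0.38 ± 0.08), Cd22 too (0.54 ± 0.16), and Pax5 (0.21 ± 0.08) did not pass. Cd69, an activation marker, stood at 8.86 to 9.36 in DMSO and 9.63 to 10.26 in EtOH (-0.88 ± 0.09, adjusted p = 4.7e-05). Among 29 immediate early and ERK feedback genes 6 were higher and 7 lower. Nr4a1, an immediate early nuclear receptor, was higher (1.13 ± 0.15), as were Fos (0.48 ± 0.08) and Jun (0.40 ± 0.07). Dusp4 and Dusp6, phosphatases that ERK induces, were lower (-0.51 ± 0.07 and -0.34 ± 0.07). Of 26 STAT5 and cytokine genes 2 were higher and 6 lower. These 8 calls became 4 without any 1 EtOH 48 h library and 5 with no term for time. Stat5b, one of the factors that BCR-ABL1 activates, was among the lower ones (-0.31 ± 0.07).

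Further differences lay outside these lists. Cyb561a3, a lysosomal cytochrome, had the largest called difference (-1.93 ± 0.24), with 7.10 to 8.29 in EtOH. In DMSO 4 of 6 libraries stood between 5.45 and 5.48. Cd36, a fatty acid receptor, was higher (1.45 ± 0.20), at 5.84 to 7.49 in DMSO and 5.05 to 5.67 in EtOH. Tuba1a, an alpha tubulin, stood at 9.92 to 10.73 in DMSO and 9.52 to 9.65 in EtOH (0.84 ± 0.09). Mib2, a ubiquitin ligase of the Notch pathway, was lower (-0.96 ± 0.11), and so was Dennd2d (-0.94 ± 0.12). Fabp5, a fatty acid binding protein, and Marcksl1, a MARCKS-like actin regulator, were higher by 0.63 ± 0.08 and 0.79 ± 0.11. Hexim1, an inhibitor of the elongation kinase P-TEFb, was 0.68 ± 0.09 higher. The 8 genes of this paragraph were picked under a rule that required no overlap between the solvents, so their separation is no separate result.

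The difference was larger in number of calls at 48 h than at 24 h. At 24 h 694 genes were called (6.05%), 341 higher (2.97%) and 353 lower (3.08%). At 48 h 2977 were called (26%), 1384 higher (12.1%) and 1593 lower (13.9%). Genes called at both times numbered 434, of which 425 had the same direction; they are 62.5% of the 24 h calls and 14.6% of the 48 h calls. Of the 2977 genes called at 48 h, 2465 had the same sign at 24 h. Across genes Pearson's r between the 2 differences was 0.49, and genes are not independent replicates. The 24 h count rests on few libraries. It was 119, 78 and 95 without EtOH 24 h replicate 1, 2 or 3, 157 without DMSO 24 h replicate 1, 427 and 458 without EtOH 48 h replicate 2 or 3, and 1478 without DMSO 48 h replicate 1. Transcript length moved with the 24 h difference. Spearman's rho across 11438 genes was -0.18 at 24 h and -0.01 at 48 h. The nuclear noncoding RNA Malat1 was lower by 1.27 ± 0.26 in log2 at 24 h, and its 48 h difference of -0.47 ± 0.26 did not pass. Xist differed by -0.70 ± 0.13 at 24 h and by -0.07 ± 0.13 at 48 h. The part of length or RNA handling in the 24 h result was not tested.

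Of the ATF4 list, 17 of 25 genes were lower at 24 h and 22 at 48 h. Without EtOH 24 h replicate 1 or 3 the 24 h count was 11 or 10. Of the replication list 10 of 30 were called at 24 h and 29 at 48 h. The 24 h count of that list was 0 without DMSO 24 h replicate 1 or EtOH 24 h replicate 2 or 3, 1 without EtOH 24 h replicate 1 and 17 without DMSO 48 h replicate 1. No cholesterol gene was called at 24 h and 13 at 48 h, but 8 were called at 24 h without DMSO 24 h replicate 3 and 3 or 1 without DMSO 48 h replicate 1 or 2, and at 48 h 7 or 8 without DMSO 48 h replicate 2 or EtOH 48 h replicate 3. MHC class I genes had 0 calls at 24 h and 13 at 48 h, or 6 without DMSO 48 h replicate 2 or EtOH 48 h replicate 3. Ribosomal protein genes had 3 at 24 h, 0 without any 1 of the EtOH 24 h libraries and 8 without DMSO 48 h replicate 1. At 48 h they had 17, or 8, 11 and 7 without DMSO 48 h replicate 2, DMSO 48 h replicate 3 or EtOH 48 h replicate 3. The difference was further from 0 at 48 h than at 24 h in 29 of 30 replication genes, 22 of 24 cholesterol genes and 19 of 25 ATF4 genes, against 60.3% of all tested genes.

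**Figure D4:**
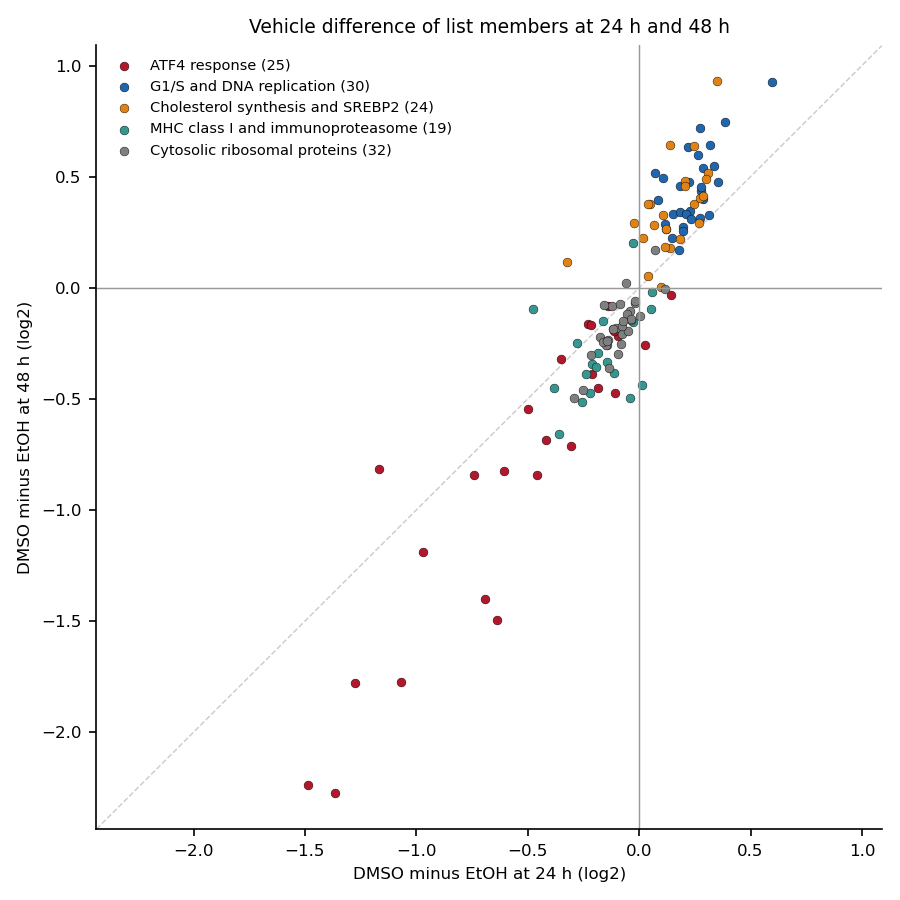
Each point is a gene of 5 lists, with the DMSO minus EtOH difference (log2) at 24 h on the horizontal axis and at 48 h on the vertical axis; the dashed line marks equal values. Replication genes lie in the upper right, with 29 of 30 further from 0 at 48 h, and ATF4 genes reach to -1.48 at 24 h and -2.28 at 48 h in the lower left.

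The change between times was tested directly in the same model. It passed for 91 genes (0.793%), 43 with a more positive difference at 48 h (0.375%) and 48 with a more negative one (0.418%), and for 2 to 212 genes when any 1 library was left out. Neither Cth (-0.75 ± 0.20, adjusted p = 0.0855) nor Rrm2 (0.36 ± 0.10, adjusted p = 0.091) passed. Marcksl1 and Hexim1 did (0.64 ± 0.13 and 0.53 ± 0.11, both with adjusted p = 0.0459). In Lta, the cytokine lymphotoxin alpha, the sign turned. It was higher in DMSO at 24 h (0.41 ± 0.09) and lower at 48 h (-0.56 ± 0.09). In EtOH it stood at 10.73, 10.76 and 10.79 and then 11.46, 11.67 and 11.76, and in DMSO at 11.21, 11.33 and 10.99 and then 10.95, 11.14 and 11.11.

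The treated libraries carry the same solvents and share no library with the vehicles. AS1842856 minus 4-OHT holds the 2 solvents, the compound and the deletion together, and these cannot be told apart in it. In that comparison 6444 genes were called (56.2%), 3247 higher (28.3%) and 3197 lower (27.9%). Of the 3011 genes called between the vehicles 1647 (54.7%) were called there in the same direction, 347 (11.5%) in the opposite one and 1017 (33.8%) were not called. In 212 genes (1.85%) the 12 libraries with DMSO as solvent did not overlap the 12 with EtOH. DMSO lay above in 117 (1.02%) and below in 95 (0.828%). Those libraries include the vehicle libraries, so a separation there is also one between the vehicles. Of the 212 genes, 209 were called between the vehicles, which is thus not separate support. Among these, Rrm2 stood at 12.13 to 12.47 with AS1842856 and at 11.73 to 11.89 with 4-OHT. Carhsp1, an RNA-binding protein, stood at 10.09 to 10.39 and 9.66 to 9.88. Sh2d5, an SH2 domain adaptor, lay on the other side, at 8.83 to 9.30 and 9.74 to 10.15, and Plxna1, a semaphorin receptor, at 10.64 to 11.07 and 11.42 to 11.66.

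Of the 30 replication genes 24 were higher and 2 lower with AS1842856 than with 4-OHT, and of the 24 cholesterol genes 20 were higher and 2 lower. Of 19 MHC class I genes 15 were lower and none higher. In the ATF4 list 13 of its 25 genes were higher and 3 lower, with a median of 0.24, and 11 genes were called in opposite directions in the 2 comparisons. Asns, lower by 0.72 in DMSO than in EtOH, was 0.39 higher with AS1842856 than with 4-OHT. Cth differed by 0.12 there and did not pass. The mean deviation of the ATF4 list was 0.49 to 0.68 in EtOH at 48 h, the highest of the 8 groups, and -0.28 to -0.21 in 4-OHT at 48 h. Foxo1 was 1.22 higher with AS1842856 than with 4-OHT, which activates Cre. Of the ribosomal protein genes 6 were higher and 4 lower, and Fads2 differed by 0.00.

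**Figure D5:**
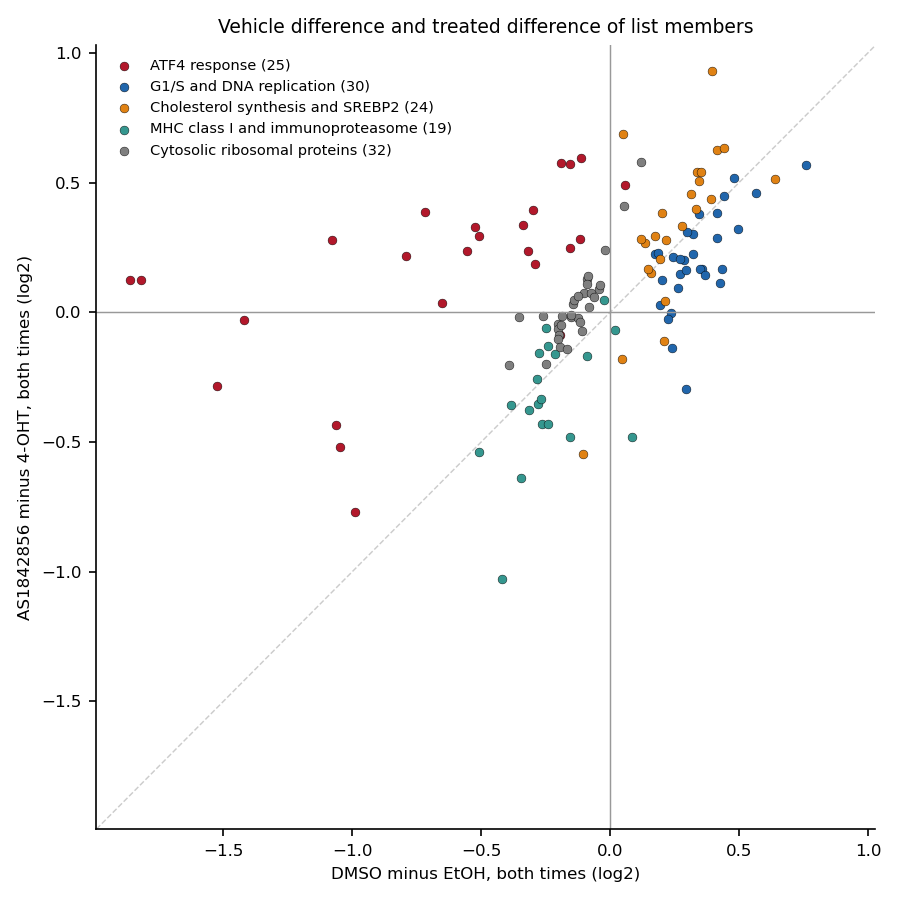
Each point is a gene of 5 lists, with DMSO minus EtOH (log2, both times) on the horizontal axis and AS1842856 minus 4-OHT (log2, both times) on the vertical axis; the 2 axes share no library, and the dashed line marks equal values. Replication, cholesterol and MHC class I genes lie mostly in the upper right or lower left, whereas 13 of 25 ATF4 genes were called higher on the vertical axis with 22 called lower on the horizontal one.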

How the data were processed

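RNA sequencing of 24 libraries was deposited as 4 tables of 41444 genes. The authors deposited log2 expression values for each library, with a fold change, p-value and adjusted p-value for each of their own comparisons. The transformation behind the log2 values is not named. The build mm10 and the tools Salmon 1.1.1, STAR 2.7.11b and DESeq2 1.44.0 are listed, per the submitters' processing notes, with no role given. Depth is unknown, and whether counting used strand is not stated in these sources. Overlapping and near-identical genes are therefore uncertain.

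Genes with a deposited mean of at least log2 of 11 were tested. Counts had been assumed when the design was set; the files hold log2 values, so limma 3.58.1 (R 4.3.3) with trended empirical Bayes was used, with time as a covariate, or 4 groups for single times and their difference. Benjamini and Hochberg adjustment ran over all 11470 genes. In a simulation of the DMSO and EtOH comparison on 11470 genes, 110 of 200 genes changed by 0.25 and 182 of 200 changed by 0.5 were recovered. Each of these runs also gave 8 false calls. Only 200 genes were changed and each gene had the same spread in both solvents, unlike in the data, so recovery there may differ. Named genes are the 12 largest each way with no overlap, 4 each way below the median level, up to 4 per list by smallest p, 5 each way between times and 6 each way by solvent over all 24 libraries. Fixed genes were named too. Further list members, named for their roles, were chosen after their values were seen. Members and lists were chosen with earlier results of these data known. Symbols and positions come from GENCODE M21. Alternatives covered scaling, filters, variance, blocks and leaving out each library. Some results are not reported here.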

Additional observations from a re-analysis of the deposited data

Results flagged for a closer look

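In 10 genes the DMSO minus EtOH difference itself differed between 24 h and 48 h by limma's test of that change, the 5 largest each way among well-expressed genes. Values are the change of the log2 difference from 24 h to 48 h. Tmprss3, a membrane serine protease, changed by 1.32 ± 0.19 (adjusted p = 0.0187). In EtOH it stood at 9.81, 9.79 and 9.78 and then 9.16, 8.94 and 8.70, and in DMSO at 9.45, 9.38 and 9.74 and then 10.28, 9.81 and 9.85. DMSO was thus below EtOH at 24 h and above it at 48 h in all libraries. Lta changed by -0.98 ± 0.13 (adjusted p = 0.0159), and Sema7a, a membrane semaphorin, by -0.73 ± 0.10. Sema7a was 0.42 higher in DMSO at 24 h and differed by -0.31 at 48 h. Slamf6, a lymphocyte receptor, and Ap4m1, an adaptor subunit, changed by 0.81 each. Ap4m1 lies beside Mcm7. Kmt2a, a histone methyltransferase, changed by 0.74 and Cd24a, a B-cell precursor antigen, by 0.66. Rgs10, a regulator of G protein signals, changed by -0.61, Fgl2 by -0.60 and Prdx5, a peroxidase, by -0.53. All 10 lost the call in at least 1 alternative.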

How the results depend on the processing

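Of 168 genes named by rule or fixed and called between DMSO and EtOH, 140 kept the call in every alternative that tested them (20 or 21 each). The other 28 lost it in at least 1, and 0 changed sign. Further list members named for their roles, such as H2-K1, Mcm7 and Fos, are not in this count. With 1 library left out, the number of called genes ran from 2129 to 3520 over both times, 78 to 1478 at 24 h, 1704 to 3378 at 48 h, 2 to 212 for the change between times and 5879 to 6977 for AS1842856 minus 4-OHT. At 48 h it was 1908 and 1704 without EtOH 48 h replicate 2 and 3. The change between times gave 15 without DMSO 24 h replicate 2, 212 without DMSO 24 h replicate 3, 148, 3 and 52 without DMSO 48 h replicate 1, 2 and 3, 6, 2 and 5 without EtOH 24 h replicate 1, 2 and 3, and 3 and 2 without EtOH 48 h replicate 2 and 3. Restricted to genes at or above the median level, which tests 5735 genes, 1974 were called over both times, 1935 at 48 h and 3739 in the treated comparison. For the change between times, 56 were called with no filter, 37 with an untrended variance and 270 with all 24 libraries in the fit; the cause was not tested. With replicate number as a block, 425 genes were called at 24 h, 36 for the change and 2678 over both times. Same-numbered libraries did not pair, with correlations of deviations from -0.14 to 0.06. Equal medians split the calls 441 higher and 264 lower at 24 h and 1699 and 1313 at 48 h. Uncalled genes near 0 changed sign: Aldh3b1 to 0.014 at equal medians and -0.049 to 0.028 with a library left out, Cd79a to -0.0024 and Txn2 to -0.0075 when quantile normalised. With a library left out, Txn2 ran from -0.0073 to 0.035, Fmo1 from -0.018 to 0.045, Fmo5 from -0.074 to 0.0050, Marc2 from -0.012 to 0.056, Txnip from -0.17 to 0.026 and Txnrd2 from -0.054 to 0.057.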

Other observations

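Whole gene families, chosen after the values of single genes were seen, are given as counts of genes called over both times together. Among all tested genes 13.2% were higher and 13.1% lower in DMSO, and 28.3% were higher and 27.9% lower with AS1842856 minus 4-OHT. Of 20 cytosolic aminoacyl-tRNA synthetases, which charge tRNAs, 11 were lower in DMSO and none higher. Nars and Sars differed by -0.43 and -0.39. With AS1842856 minus 4-OHT 18 of them were higher and none lower. Of 17 mitochondrial synthetases 2 were higher and 4 lower. Of 19 amino acid transporters 7 were lower and none higher, with Slc6a9, a glycine carrier, and Slc7a3, an arginine carrier, each at -1.01.

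Of all 80 cytosolic ribosomal protein genes 50 were lower and none higher, with a median of -0.14. Of 76 mitochondrial ones 18 were higher and 5 lower (all genes, 13.2% and 13.1%), and 64 were higher and 1 lower with AS1842856 minus 4-OHT (all genes, 28.3% and 27.9%). Of 34 constitutive proteasome subunits 9 were higher and none lower. Neither family kept 1 direction over time. At 24 h the mitochondrial ones had 4 higher and 0 lower, and the proteasome 5 and 0 (all genes, 2.97% and 3.08%). At 48 h the counts were 7 higher and 9 lower, and 1 and 3 (all genes, 12.1% and 13.9%). Of 20 MCM, GINS and origin recognition genes 15 were higher and 1, Orc4, was lower (-0.38). Of 14 tubulins 5 were higher and 2 lower, and of 8 E2F genes 4 were higher and 1 lower, again against 13.2% and 13.1% of all genes. Of 12 MHC class I heavy chain genes 10 were lower and none higher.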
